A study of Homo sapiens with 6 samples.

Results

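The 10 glycolytic enzyme genes HK1, HK2, GPI, PFKP, ALDOA, TPI1, GAPDH, PGK1, ENO1 and LDHA were followed in NB4 cells treated with maltonis. They were taken by gene symbol from the 23368 symbols of the count files. The rule itself uses no measured value, but the list was chosen with earlier results of these data known. All 10 passed the filter on low counts, as did 13209 genes in all. NB4 is a human cell line of acute promyelocytic leukaemia (APL) that carries the PML/RARA fusion, and maltonis is a synthetic molecule derived from maltol. There were 3 RNA-seq libraries of not treated (n.t.) cells and 3 of cells exposed to 10 µM maltonis for 24 h, and every library came from this one cell line. The labels name no agent or vehicle for the n.t. cells, and no second dose or time was analysed here.

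Glycolysis splits glucose into pyruvate in the cytosol and yields ATP and NADH, and lactate dehydrogenase then turns pyruvate into lactate and restores NAD+. Within the first steps, run by hexokinase, glucose-6-phosphate isomerase and phosphofructokinase, ATP is consumed. Aldolase and triose-phosphate isomerase give the triose phosphates, and ATP is returned within the stretch from glyceraldehyde-3-phosphate dehydrogenase onward. Dividing leukaemic cells draw on this pathway for energy and for the carbon of nucleotides, lipids and amino acids, and MYC and HIF1A are known activators of many of its genes.

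Promoter stretches of 5 members are shown for members that the results turn on. ENO1, PGK1 and HK2 were lower after maltonis, GAPDH was not called, and LDHA had unlike values in the batches described below. Each is the 250 bases before a RefSeq start in build GRCh38.p14, written 5′ to 3′ on the strand of the gene. Capitals mark, on either strand, CACGTG (the E-box, the letters MYC and its partner MAX are known to bind) and ACGTG or GCGTG (the letters at the core of hypoxia response elements), and ACGTG also lies inside every CACGTG. The windows are chr1:8878687-8878936 on the minus strand for ENO1 and, on the plus strand, chrX:78103998-78104247 for PGK1, chr2:74833877-74834126 for HK2, chr12:6535014-6535263 for GAPDH and chr11:18394313-18394562 for LDHA.
ENO1: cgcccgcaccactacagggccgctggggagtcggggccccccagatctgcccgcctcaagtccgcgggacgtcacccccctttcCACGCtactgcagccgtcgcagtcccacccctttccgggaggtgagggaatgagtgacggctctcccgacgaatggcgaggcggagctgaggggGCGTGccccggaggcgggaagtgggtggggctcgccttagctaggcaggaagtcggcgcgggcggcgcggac
PGK1: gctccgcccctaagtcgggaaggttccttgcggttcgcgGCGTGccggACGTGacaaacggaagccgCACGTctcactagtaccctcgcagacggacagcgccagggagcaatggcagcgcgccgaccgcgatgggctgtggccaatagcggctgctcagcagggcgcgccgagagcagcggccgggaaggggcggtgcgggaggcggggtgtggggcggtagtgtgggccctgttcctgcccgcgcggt
HK2: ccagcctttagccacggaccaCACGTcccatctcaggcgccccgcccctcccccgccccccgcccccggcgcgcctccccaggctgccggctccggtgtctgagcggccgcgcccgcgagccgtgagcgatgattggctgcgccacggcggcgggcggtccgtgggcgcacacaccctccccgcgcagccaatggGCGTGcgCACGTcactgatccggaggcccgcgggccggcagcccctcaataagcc
GAPDH: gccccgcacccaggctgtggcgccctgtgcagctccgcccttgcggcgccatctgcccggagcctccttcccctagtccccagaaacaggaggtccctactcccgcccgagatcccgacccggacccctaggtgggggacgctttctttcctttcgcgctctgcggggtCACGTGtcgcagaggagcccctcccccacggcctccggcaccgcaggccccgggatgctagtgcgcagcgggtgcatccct
LDHA: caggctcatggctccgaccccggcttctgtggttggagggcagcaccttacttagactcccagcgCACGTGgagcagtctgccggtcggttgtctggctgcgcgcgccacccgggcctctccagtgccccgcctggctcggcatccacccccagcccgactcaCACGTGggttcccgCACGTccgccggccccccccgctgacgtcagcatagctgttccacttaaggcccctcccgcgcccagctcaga
The LDHA window held CACGTG at 185 and 87 bases before the start, and the GAPDH window held it at 81 bases. The windows of ENO1 and PGK1 and this first window of HK2 held none. A second RefSeq window of HK2 (chr2:74834920-74835169, plus strand) held it at 194 and 149 bases before its start, and the second window of LDHA held none, so that windows with and without CACGTG were found for the same gene. Over the 24 RefSeq windows of the 10 members, CACGTG was found in 4 windows, of HK2, ALDOA, GAPDH and LDHA, against 6.34% of all 35116 human windows of this length. ACGTG was found in 11 of the 24 windows (18.5% of all windows) and GCGTG in 8 (32.2% of all windows). These matches describe the letters of each window and are not binding data.

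The libraries held 18492154 to 38205483 counts, so that 3 counts correspond to 0.0785 to 0.162 counts per 1000000 counts of a library (CPM). The members were counted far above that floor, from 184 counts (HK1, maltonis replicate 1) to 130248 counts (ENO1, n.t. replicate 2). All 9 myeloid markers examined were detected in all 6 libraries, and the markers HBA1, HBB, MS4A1, PF4 and KRT5 of other cell types were at 0 in every library. The summed level of the myeloid markers was 14161 to 16604 CPM in n.t. and 8826 to 9353 CPM in maltonis libraries, most of it MPO, which went from 14612 to 7425 CPM (means of 3), and that of the other markers was 59.9 to 62.8 and 26.2 to 28.5 CPM, most of it CD3D and EPCAM. The myeloid markers did not move together: 4 of 9 were called lower and 2 higher, AZU1 by 0.48 and CTSG by 2.34 on the log2 scale, and their median log2 fold change was -0.11. The part of these markers in the results was not tested. By a code that the library names carry and that the sources used here do not explain, replicate 1 of each group (batch A below) is set apart from replicates 2 and 3 (batch B). Of the members, HK1, HK2, GPI and LDHA were lowest in replicate 1 of both groups, and n.t. replicate 1 stood well below the other n.t. libraries for HK1 and LDHA. Values without that library are given beside the results of these 4 members.

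The transcripts of 6 members were lower in maltonis-treated than in n.t. cells and none was higher. HK1 was at 28.2%, HK2 at 48.6%, ENO1 at 51.2%, PGK1 at 58.0% and TPI1 at 68.9% of the n.t. level, and PFKP, with a log2 fold change of -0.30, was the smallest change called. GPI, ALDOA, GAPDH and LDHA did not pass the threshold, an adjusted p under 0.01 in the quasi-likelihood test of edgeR, adjusted by Benjamini-Hochberg over all genes tested. In this comparison 32.1% of all genes tested were called lower and 31.9% higher, so that 6 of 10 members lower stands beside a response in which 64.0% of genes were called. The 0 members called higher were also 0 at an unadjusted p under 0.05 by edgeR and 0 by DESeq2, but 1 member was higher at that unadjusted p in edgeR with total counts and 1 with the upper quartile. The same 6 members were those whose 3 maltonis libraries all lay below all 3 n.t. libraries, which held for 37.8% of all genes tested. The members' median log2 fold change was -0.51, against 0.01 over all genes tested. No test is given for the list as a whole, because it was chosen with earlier results known. Together the members took 1.09 to 1.14% of all counts in n.t. libraries (mean 1.11% ± 0.0296, SD, n = 3) and 0.906 to 0.914% in maltonis libraries (mean 0.910% ± 0.00403, SD, n = 3). This share weighs each member by its counts, and ENO1 had the most counts of the members in every n.t. library. It is therefore not a drop shared by all 10 members. In bulk RNA, less of a transcript in every cell cannot be told apart from fewer cells that hold it.

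**Figure D1:**
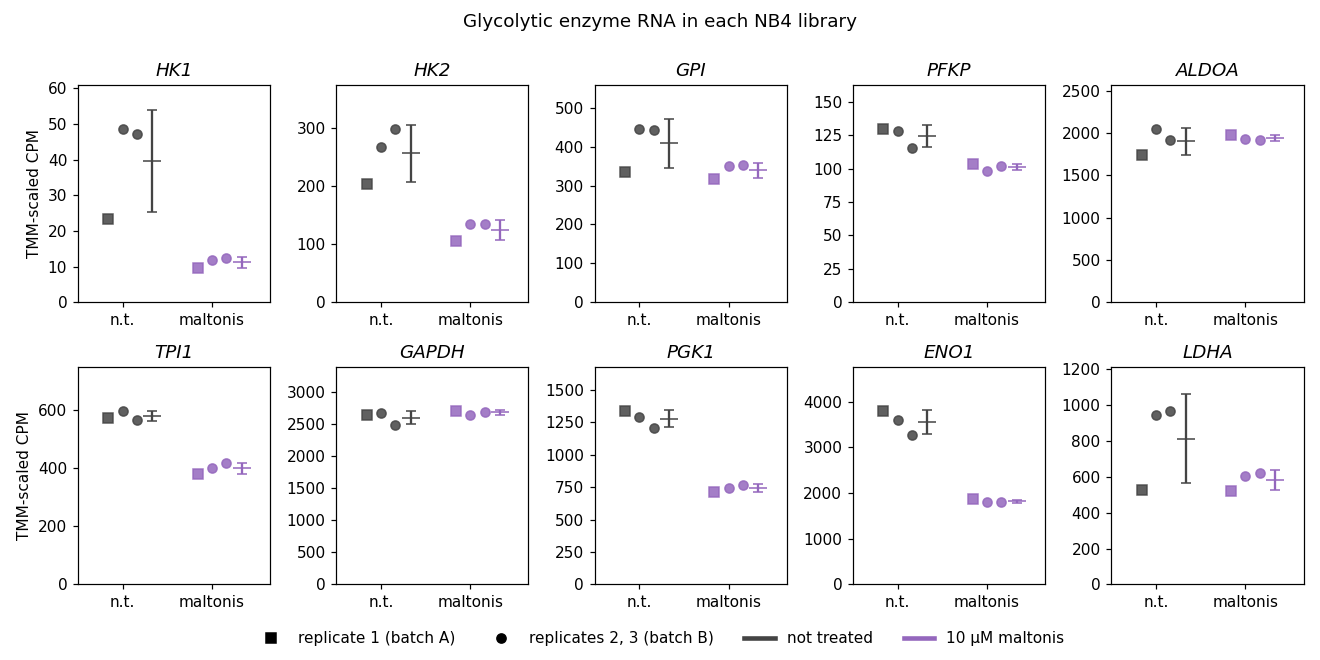
Level of each glycolytic enzyme in each library, in CPM scaled by trimmed mean of M values (TMM), with squares for replicate 1, circles for replicates 2 and 3, and a bar for the mean ± SD of each group. Every panel starts at 0. The groups are apart for HK1, HK2, PFKP, TPI1, PGK1 and ENO1 and overlap for GPI, ALDOA, GAPDH and LDHA.

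Of the 2 hexokinases, at the entry of glucose into the pathway, HK1 had the largest change of the 10 members and HK2 the next. HK2 (log2 fold change -1.04, SE 0.148) was close to ENO1 (-0.97, SE 0.0694), and their order was not stable. ENO1 changed more than HK2 without n.t. replicate 3 (-1.03 against -0.92), without maltonis replicate 1 and within batch A (-1.03 against -0.95). HK2 changed more than ENO1 under the other settings tried. Hexokinase phosphorylates glucose and so holds it in the cell, HK1 being the widely expressed form and HK2 the inducible form that many tumours use. HK1 stood at 23.2, 48.7 and 47.2 CPM in n.t. replicates 1 to 3 and at 9.50, 11.8 and 12.4 CPM in maltonis replicates 1 to 3. The maltonis libraries were close together, whereas n.t. replicate 1 lay far below the other n.t. libraries, and the groups did not overlap. The log2 fold change of HK1 was -1.83 (SE 0.260, 95% interval -2.42 to -1.23, edgeR adjusted p = 0.000221), with -1.28 within batch A, -1.98 within batch B and -2.09 without n.t. replicate 1. HK2 stood at 203, 268 and 299 CPM in n.t. and at 105, 134 and 135 CPM in maltonis libraries. Its lowest n.t. library was above its highest maltonis library, with a log2 fold change of -1.04 (SE 0.148, edgeR adjusted p = 0.00022) (-0.95 within A, -1.07 within B and -1.19 without n.t. replicate 1).

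The next steps rearrange and phosphorylate the sugar. GPI, which converts glucose-6-phosphate to fructose-6-phosphate, stood at 335, 447 and 443 CPM in n.t. and at 318, 349 and 352 CPM in maltonis libraries. The groups overlapped through n.t. replicate 1, and the log2 fold change of -0.27 (SE 0.110, 95% interval -0.52 to -0.02) did not pass the threshold (edgeR adjusted p = 0.0536). Without n.t. replicate 1 the GPI value was -0.40 (edgeR adjusted p = 0.000343), and within batches it was -0.08 in A and -0.34 in B. PFKP, the platelet form of phosphofructokinase, which commits the sugar to glycolysis, stood at 130, 128 and 115 CPM in n.t. and at 103, 98.5 and 102 CPM in maltonis libraries. The groups were apart by a small margin, with a log2 fold change of -0.30 (SE 0.0647, edgeR adjusted p = 0.00273) (-0.33 within A and -0.28 within B). PFKP lost its call when libraries were scaled by total counts (log2 fold change -0.18, edgeR adjusted p = 0.0333), by the upper quartile (-0.21, adjusted p = 0.0151) or without n.t. replicate 2 (-0.28, adjusted p = 0.0141).

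At the split into trioses the members parted. ALDOA, the main aldolase of blood cells and muscle, stood at 1739, 2055 and 1917 CPM in n.t. and at 1983, 1928 and 1914 CPM in maltonis libraries. The maltonis libraries fell within the n.t. range, with a log2 fold change of 0.03 (SE 0.0710, 95% interval -0.13 to 0.19, edgeR adjusted p = 0.731). The ALDOA value was 0.19 within A and -0.05 within B, so that its sign depended on the libraries used. TPI1, which interconverts the triose phosphates, stood at 573, 596 and 563 CPM in n.t. and at 380, 398 and 415 CPM in maltonis libraries. These groups were far apart for the spread within them, with a log2 fold change of -0.54 (SE 0.0581, edgeR adjusted p = 3.89e-05), with -0.59 within A and -0.51 within B.

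In the steps from glyceraldehyde-3-phosphate dehydrogenase onward, PGK1 and ENO1 were lower and GAPDH was not called. GAPDH, which oxidises glyceraldehyde-3-phosphate, stood at 2636, 2671 and 2478 CPM in n.t. and at 2707, 2638 and 2692 CPM in maltonis libraries. The groups overlapped, and the log2 fold change was 0.05 (SE 0.0571, 95% interval -0.08 to 0.18, edgeR adjusted p = 0.487), with 0.04 in batch A and 0.05 in batch B. PGK1, which passes a phosphate to ADP, stood at 1341, 1291 and 1208 CPM in n.t. and at 712, 743 and 771 CPM in maltonis libraries. No library of one group came near the other, and the log2 fold change was -0.79 (SE 0.0632, edgeR adjusted p = 6.12e-06), with -0.91 in batch A and -0.72 in batch B. ENO1, the enolase that forms phosphoenolpyruvate, stood at 3803, 3595 and 3265 CPM in n.t. and at 1859, 1802 and 1801 CPM in maltonis libraries. It had the smallest adjusted p of the 10 members (log2 fold change -0.97, SE 0.0694, edgeR adjusted p = 3.15e-06), with -1.03 in batch A and -0.93 in batch B.

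LDHA encodes the subunit of lactate dehydrogenase that favours the formation of lactate. It stood at 528, 942 and 968 CPM in n.t. and at 520, 607 and 619 CPM in maltonis libraries. In batch A the n.t. and maltonis libraries were nearly level, and in batch B both n.t. libraries were above both maltonis libraries. Over all 6 libraries the log2 fold change of -0.48 (SE 0.203, 95% interval -0.95 to -0.02) did not pass the threshold (edgeR adjusted p = 0.0581). Within A it was -0.02 and within B -0.64, where the edgeR adjusted p was 1.37e-06. Without n.t. replicate 1 it was -0.73 (edgeR adjusted p = 3.07e-05), and with the batch as a term in the fit it was -0.44 (edgeR adjusted p = 0.00226).

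With that batch term 8 of 10 members were called lower, GPI (log2 fold change -0.26, edgeR adjusted p = 0.00223) and LDHA joining the other 6, against 35.9% of all genes tested. Whether the change itself differed between batches was looked at by the interaction of treatment and batch, a fit added after the low n.t. replicate 1 had been seen. Batch A holds 1 library per group, so that the spread came from batch B alone (2 residual degrees of freedom) and the fit is no independent check of that library. At an adjusted p under 0.01 this interaction was called for 0 of 10 members and for 0.197% of all genes tested, and 4 members (HK1, GPI, ALDOA and LDHA) had an unadjusted p under 0.05. The difference between batch B and batch A was -0.62 on the log2 scale for LDHA (edgeR adjusted p = 0.0135) and -0.70 for HK1 (edgeR adjusted p = 0.0715). The cause of the low n.t. replicate 1 values was not tested.

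**Figure D2:**
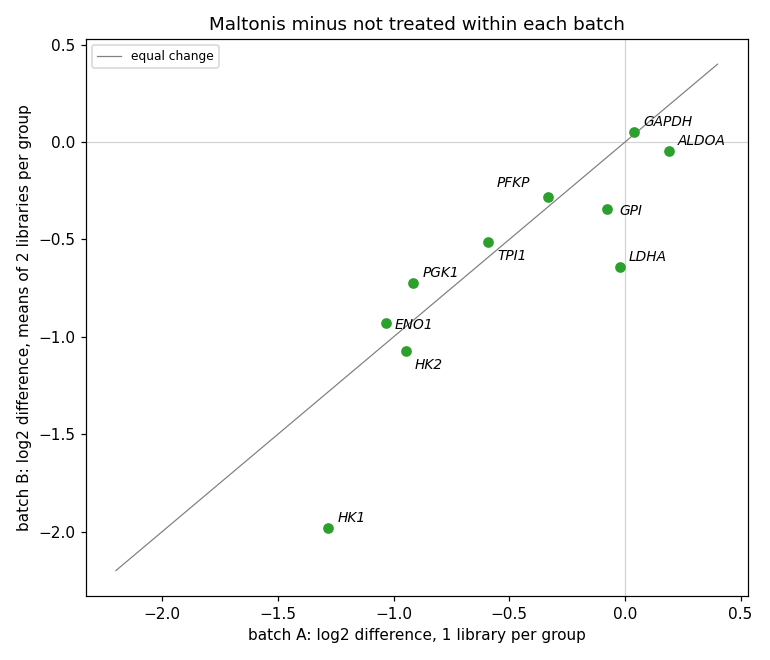
Log2 difference between maltonis and n.t. libraries within batch A (replicate 1, 1 library per group) and within batch B (replicates 2 and 3) for each glycolytic enzyme. LDHA stood at -0.02 in batch A and -0.64 in batch B, whereas PFKP, TPI1 and GAPDH differed least between the batches.

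**Figure D3:**
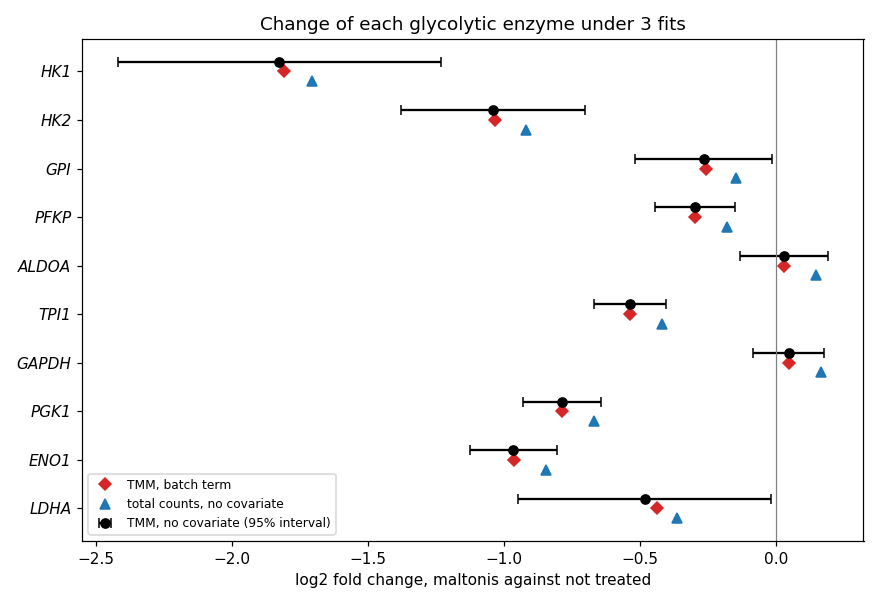
Log2 fold change of each glycolytic enzyme, maltonis against n.t., as fitted with TMM scaling and no covariate (black, with 95% interval), with a batch term (red) and with scaling by total counts (blue). Total counts moved every value up, PFKP to -0.18 and GAPDH to 0.16, and changed no sign.

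The scaling between libraries bears on the small changes. Total counts moved the median over all genes by 0.12 on the log2 scale relative to TMM, and the members moved by about as much. GAPDH then had a log2 fold change of 0.16 (edgeR adjusted p = 0.0249) and ALDOA one of 0.15 (edgeR adjusted p = 0.0735), neither of them called, and 5 of 10 members were lower, against 27.6% of all genes tested. A ratio to GAPDH within the same library does not depend on this scaling, and can show only that members differ unequally from it. The ratio of ENO1 to GAPDH, both per length, was 1.31, 1.23 and 1.20 in n.t. and 0.626, 0.623 and 0.610 in maltonis libraries, without overlap. Its exact two-sided permutation p was 0.1, the smallest that 3 against 3 libraries allow. On the log2 scale the mean ratio of ENO1 differed by -1.01, that of PGK1 by -0.83 and that of TPI1 by -0.58, also without overlap, and that of ALDOA by -0.015 (exact permutation p = 1).

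Per length of all RefSeq-linked exons of a gene joined, as CPM per kilobase of exon (RPKM), the members spanned a wide range of levels. The order between genes depends on these lengths, which can exceed that of the transcript a cell makes, and it was not tried with other lengths. The SD covers only the spread between libraries. In n.t. cells ENO1 was highest with 1479 ± 113 RPKM, followed by GAPDH with 1185 ± 47.0 and ALDOA with 848 ± 70.8 (SD, n = 3). TPI1 (311 ± 9.16), LDHA (294 ± 89.4) and PGK1 (262 ± 13.8) came next, and the libraries of TPI1 and LDHA, and of LDHA and PGK1, overlapped. GPI had 91.3 ± 14.2 RPKM, HK2 and PFKP overlapped at 44.4 ± 8.46 and 41.9 ± 2.71, and HK1 was lowest with 9.07 ± 3.26. After maltonis ENO1 had 757 ± 13.7 RPKM and stood behind GAPDH with 1223 ± 16.5 and ALDOA with 865 ± 16.2. PFKP then stood above HK2, at 34.1 ± 0.823 against 21.6 ± 2.93 RPKM, and TPI1 and LDHA were the one pair of neighbours whose libraries overlapped. By the study's criteria for a changed gene (adjusted p under 0.01, more than 2.5-fold and over 10 RPKM in the higher group) 0 of 10 members qualified, against 3.97% of all genes tested downregulated and 1.92% upregulated. HK1 passed the criteria of p and fold and came just short of that of level, at 9.07 RPKM. That value rests on the joined exon length of HK1 used here (4379 bases), and a shorter length would raise it. The lengths behind the study's own RPKM are not given in the sources used here, so the 0 of 10 is not the study's own count. HK1 passed all of these criteria without n.t. replicate 1 or in batch B alone.

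**Figure D4:**
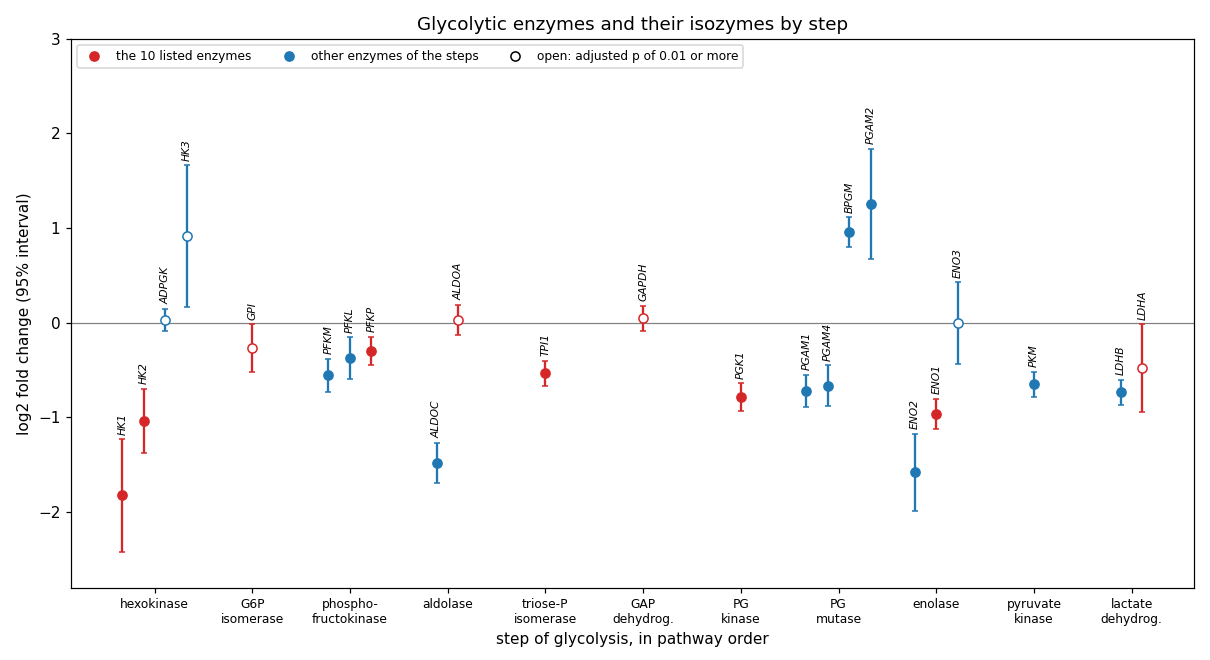
Log2 fold change of every tested gene of each glycolytic step, maltonis against n.t., with the members and the other isozymes drawn in the order of the pathway. Bars are 95% intervals and open points were not called, and of the called genes only BPGM and PGAM2 lie above 0.

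Lower calls also outnumbered higher ones among the other genes of these steps. Of 22 further glycolytic isozymes and enzymes, 13 passed the filter, of which 8 were called lower (against 32.1% of all genes tested) and 2 higher (1 without maltonis replicate 2), with a median log2 fold change of -0.56. LDHB, the other subunit of lactate dehydrogenase, went from 2663 ± 88.1 to 1597 ± 55.4 CPM (SD, n = 3) and so changed by -0.74 on the log2 scale (edgeR adjusted p = 5.69e-06). PKM (listed in the files as PKM2), the pyruvate kinase that makes the last ATP, fell by 0.65 on the log2 scale, from 944 ± 29.1 to 600 ± 27.6 CPM. The minor forms ALDOC and ENO2 fell by 1.48 and 1.58, ENO2 from only 4.45 ± 0.855 CPM. PGAM1, the phosphoglycerate mutase between PGK1 and ENO1, fell by 0.72, and its near-identical copy PGAM4, whose reads may be shared with it, by 0.66. Of the other phosphofructokinases PFKM fell by 0.56 and PFKL by 0.38, the latter call being lost with total counts or the upper quartile. BPGM, which makes 2,3-bisphosphoglycerate in a side branch at the level of PGK1, rose from 30.2 ± 1.66 to 58.7 ± 1.60 CPM, a log2 fold change of 0.96 (edgeR adjusted p = 3.09e-06). PGAM2, the muscle form of the mutase, rose from 1.18 ± 0.468 to 2.83 ± 0.0190 CPM. HK3, ADPGK and ENO3 were not called, with log2 fold changes of 0.92, 0.03 and 0.00. Of these, ADPGK, listed at the hexokinase step, was well expressed, at 161 ± 3.84 CPM in n.t. and 164 ± 1.64 CPM in maltonis libraries (SD, n = 3). It is not part of the hexokinase shares below.

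Isozymes that serve 1 step can be set against each other within a library, as shares of their length-scaled counts. HK1 took 13.1, 19.3 and 17.2% of the hexokinase counts (HK1, HK2 and HK3) in n.t. and 10.5, 10.4 and 10.7% in maltonis libraries, without overlap. HK2 took 83.3% ± 3.09 in n.t. and 88.7% ± 0.297 (SD, n = 3) in maltonis libraries. Without n.t. replicate 1 the difference of the HK1 share was -7.74 percentage points in place of -6.01, and that of the HK2 share 7.13 in place of 5.45. For both shares, with all libraries, the exact two-sided permutation p was 0.1, or 0.167 after Benjamini-Hochberg adjustment over the 5 shares compared, and this design cannot go below 0.1. LDHA took 10.1, 16.6 and 17.8% of the lactate dehydrogenase counts in n.t. and 16.3, 17.8 and 17.8% in maltonis libraries, so that n.t. replicate 1 alone stood apart (exact permutation p = 0.7, adjusted 0.7), and the difference of 2.44 percentage points was 0.0579 without it. PFKP took 28.0% ± 1.13 and 29.3% ± 1.56 of the phosphofructokinase counts (exact permutation p = 0.4, n = 3 per group, adjusted 0.5), a difference of 1.30 percentage points that was 0.652 without n.t. replicate 1, 0.450 without maltonis replicate 3 and 1.97 without maltonis replicate 1. ALDOA took 96.5% ± 0.629 and 98.7% ± 0.0431 of the counts of ALDOA and ALDOC, also without overlap (exact permutation p = 0.1, n = 3 per group, adjusted 0.167).

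**Figure D5:**
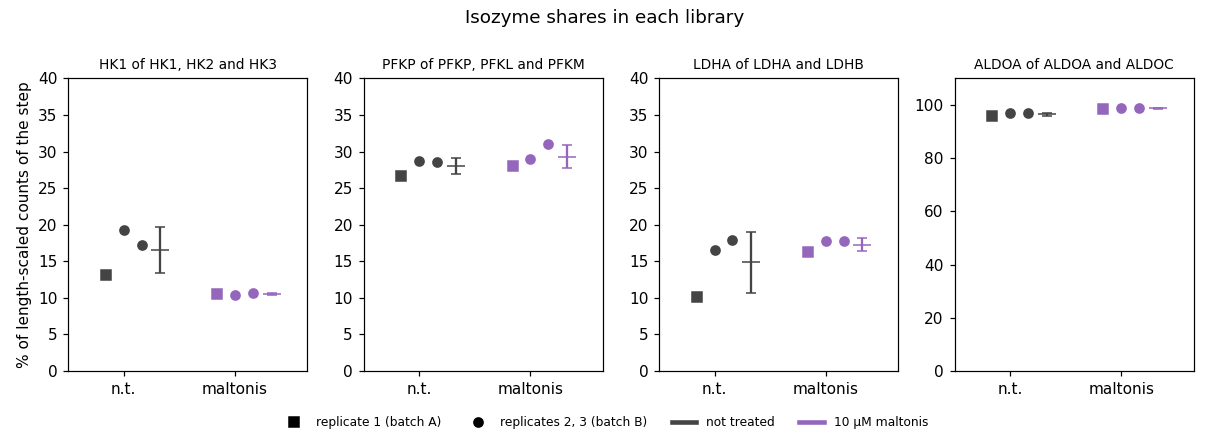
Share of each step's length-scaled counts taken by HK1, PFKP, LDHA and ALDOA in each library, in percent, with the mean ± SD of each group. The first 3 panels run from 0 to 40%. HK1 and, on a wider scale, ALDOA separate the groups, whereas for LDHA n.t. replicate 1, at 10.1%, lies below all other libraries.

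Of 18 listed genes that carry glucose or lactate, or help to, 13 were tested, 7 were called lower (against 32.1% of all genes tested) and 1 higher (against 31.9%), with a median log2 fold change of -0.77. SLC2A3, a high-affinity glucose transporter, fell by 1.41 on the log2 scale, from 95.1 ± 1.14 to 35.8 ± 1.13 CPM (SD, n = 3), and SLC16A1, which carries lactate and pyruvate across the membrane, fell by 1.29, from 378 ± 37.7 to 155 ± 14.3 CPM. SLC2A12 fell by 2.05 at a low level, from 2.17 ± 0.451 to 0.546 ± 0.158 CPM, and SLC2A9, known mainly as a urate transporter, rose from 4.64 ± 0.148 to 11.9 ± 0.446 CPM. SLC2A1, the widely expressed glucose transporter GLUT1, was picked after its values were seen, and fell by 0.79.

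Of 12 listed genes that set the flux 8 were tested, 3 of them called higher and 2 lower, shares near the 31.9% and 32.1% of all genes tested, with a median log2 fold change of 0.21. The lower calls numbered 1 with total counts, with the upper quartile, without n.t. replicate 2 or without maltonis replicate 2. TIGAR (listed as C12orf5), which lowers the level of the activator of phosphofructokinase that PFKFB3 makes, went from 13.3 ± 1.75 to 28.2 ± 2.80 CPM (SD, n = 3), which is 1.08 higher on the log2 scale (edgeR adjusted p = 3.80e-05). PFKFB3, the kinase that makes it, had a log2 fold change of 0.56, and PDP1, which switches pyruvate dehydrogenase on, one of 0.53. PDK3, a kinase that switches pyruvate dehydrogenase off, fell by 0.46.

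Among the genes linked to glycolysis as regulators, MYC was at 661 ± 57.8 CPM in n.t. and 185 ± 6.64 CPM in maltonis libraries, a log2 fold change of -1.84 (edgeR adjusted p = 1.66e-07). TXNIP, an inhibitor of glucose uptake, rose from 259 ± 3.18 to 621 ± 15.0 CPM, a log2 fold change of 1.26 (edgeR adjusted p = 1.69e-07). HIF1A had a log2 fold change of -0.16 and was not called (edgeR adjusted p = 0.0926). A part of these regulators in the changes of the members was not tested.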

How the data were processed

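RNA-seq was available for 6 NB4 libraries, 3 n.t. and 3 with 10 µM maltonis for 24 h, described by the study as biological triplicates, and p-values measure the spread between these libraries. The deposited counts per gene symbol were made by the authors from reads aligned to hg19 (TopHat, Bowtie2 and HTSeq in the submitters' processing notes), and the strand setting and the treatment of reads that map to copies of a gene are not given in the sources used here. The members and lists were chosen with earlier results of these data known. Counts were tested in edgeR 4.0.16 (R 4.3.3) after its filter on low counts, with TMM scaling, no covariate, the quasi-likelihood test and Benjamini-Hochberg adjustment over 13209 genes, called under 0.01. The floor of 3 counts covers counting error only. RPKM used RefSeq-linked exon lengths of GENCODE 29, found for 21283 of 23368 symbols. All members, all tested isozymes of their steps, the 4 largest called and non-overlapping changes of each further list, and MYC, HIF1A and TXNIP were named. Promoters came from RefSeq (GRCh38.p14), matched for all 10 members. DESeq2 1.42.0, other scalings, filters, lengths, a batch term, a replicate block and leaving out each library were tried, and batch B alone, the treatment by batch interaction and the ENO1 to GAPDH ratio were added after seeing the data. One marker of another cell type is not reported here. The fit was tested on simulated counts that had the same setting of spread for every gene and no batch. That test does not cover a deviating library such as n.t. replicate 1.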

Additional observations from a re-analysis of the deposited data

How the results depend on the processing

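HK1, HK2, TPI1, PGK1 and ENO1 kept their direction and their call under all 16 alternatives tried for each, and GAPDH kept its sign and stayed uncalled in all 16. GPI passed the threshold with the batch term (-0.26 on the log2 scale), in batch B alone (-0.35) and without n.t. replicate 1 (-0.40), its range on leaving out 1 library being -0.40 to -0.20. LDHA passed it with the batch term (-0.44), in batch B alone (-0.64) and without n.t. replicate 1, with a range of -0.73 to -0.35. PFKP lost its call with total counts (-0.18), the upper quartile (-0.21) and without n.t. replicate 2, with a range of -0.36 to -0.28. ALDOA changed sign without n.t. replicate 1 (-0.044), without maltonis replicate 1 (-0.0093) and in batch B alone (-0.051), with a range of -0.044 to 0.080, and was called in none of them. The members called lower numbered 5 with total counts or the upper quartile, 8 with the batch term, the replicate block or batch B alone, and 5 to 8 on leaving out 1 library. The members past the study's criteria numbered 1 (HK1) without the RPKM criterion, in batch B alone and without n.t. replicate 1, and 0 to 1 on leaving out 1 library. The shares of HK1, HK2, PFKP, LDHA and ALDOA among isozymes kept their direction with other exon lengths. For HK1, HK2 and ALDOA this could hardly come out otherwise and is no check. A length is the same in every library, their groups do not overlap, and HK3 has very few counts. On leaving out 1 library the LDHA difference ranged from 0.0579 to 3.94 percentage points and the PFKP difference from 0.450 to 1.97. Of the counts for the other lists, 196 stayed within 1.5 times and 28 did not. The causes of these shifts were not tested.

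Whether the replicate numbers pair the samples was not settled. The correlations between same-numbered n.t. and maltonis libraries, of deviations from the group means, were 0.301, 0.0852 and 0.161. Their mean was 0.183, against -0.0868 for the pairs with unlike numbers. However, n.t. replicate 2 correlated best with maltonis replicate 3, and replicate 1 of both groups is batch A. With the replicate block, GPI (-0.26, edgeR adjusted p = 0.00579) and LDHA (-0.44, edgeR adjusted p = 0.00407) passed the threshold, the calls of the other 8 members were unchanged, and 4602 genes were called higher and 4620 lower, in place of 4213 and 4239. Depth did not limit the members, each with at least 184 counts in every library, but it limits PGAM2, ENO2, ENO3, HK3 and SLC2A12, at a few CPM or less. Batch A holds 1 library per group and gives no test of its own.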

Other observations

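The routes that leave or run against glycolysis were read from lists of their own, beside 32.1% of all genes tested called lower and 31.9% higher. PC, which turns pyruvate into oxaloacetate, was the 1 gene of 4 tested in gluconeogenesis that was called, and it fell by 2.11 on the log2 scale, from 33.8 ± 1.90 to 7.81 ± 0.527 CPM (SD, n = 3). With total counts or the batch term 1 gene of that list was called higher, and without n.t. replicate 1 the lower calls numbered 2. Of 7 tested genes of pyruvate entry into mitochondria 3 were called lower and 0 higher by edgeR: DLAT and PDHA1, parts of pyruvate dehydrogenase, fell by 0.94 and 0.58, and PDHX fell by 0.28, a call lost with total counts, where 1 gene of the list was called higher. Of 8 tested genes of the pentose phosphate pathway 3 were called lower and 1 higher, PGLS with a log2 fold change of 0.79, while RPE, RPIA and TALDO1 fell by 0.72, 0.69 and 0.35. The higher calls of this pathway numbered 3 with total counts, the upper quartile, the batch term or batch B alone and 2 without n.t. replicate 1, so that they were as many as the 3 lower calls with total counts. Of 12 tested genes that lead into glycogen or serine 6 were called lower and 3 higher (5 higher with total counts). PGM1, which links glycogen to glucose-6-phosphate, fell by 1.55 with n.t. libraries at 104 ± 0.547 CPM and maltonis libraries at 35.7 ± 0.786 CPM, and PYGL, the glycogen phosphorylase of liver and blood cells, fell by 1.08. GYS1, a glycogen synthase, rose from 51.1 ± 2.59 to 101 ± 13.3 CPM, and PSAT1, of serine synthesis, fell by 0.91 with a low n.t. replicate 1 (29.1 against 53.5 and 52.8 CPM), by 1.14 without that library, a call lost with total counts.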
